A study of Mus musculus with 3 samples.

Results

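RNA polymerases I, II and III are the nuclear enzymes that copy DNA into RNA, and their subunits were followed here in memory phenotype CD4 T cells of the mouse spleen, after feeding on a high fat diet (HFD) or a normal diet (ND). The members were the genes whose symbol in the platform's probe annotation begins with Polr1, Polr2 or Polr3 and that are read by a probe set assigned to that gene alone. This gave 25 genes of 18193 named on the array, 5 with a Polr1, 11 with a Polr2 and 9 with a Polr3 symbol, read by 54 probe sets. Each gene is represented by its brightest probe set, and all 25 passed the filter on low intensity, none closely, since the lowest mean over the 3 arrays was 309 against a filter of 71.4. Polr2k and Polr2l were read only by probe sets that carry several gene symbols and are not analysed here.

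The samples were RNA from CD4 T cells of memory phenotype, helper T cells with the surface markers of antigen-experienced cells, sorted from spleens of BALB/c mice after 10 weeks of feeding. The HFD group, given a diet with 60 kcal% fat, held 2 arrays, and the ND group held 1. The labels give neither age nor sex nor the number of mice behind an array, so the spread behind each p-value may be wholly technical. The lone ND array has no error of its own, and the diet and anything else particular to that sample, such as its handling, cannot be told apart.

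Polymerase I transcribes the ribosomal RNA precursor in the nucleolus, polymerase II transcribes messenger RNA and many small RNAs, and polymerase III transcribes transfer RNA, 5S ribosomal RNA and other short RNAs. All 3 enzymes are built around a pair of large catalytic subunits and share a set of small subunits, which the mouse nomenclature lists under Polr2. Resting T cells make little ribosomal RNA, and T cells that enter growth raise its synthesis.

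Levels are linear intensities in arbitrary units. Differences are HFD minus ND on a log2(intensity + 17.7) scale, with a standard error (SE) from limma's moderated model over 10341 genes, and a gene was called at an adjusted p under 0.05 (Benjamini-Hochberg over those genes). The median gene lay lower in HFD (log2 -0.15), and group medians are also given relative to it. Levels of different genes are not compared, since probe sets differ in brightness.

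Markers of the sorted cells and of other cells differed between the groups. Of 10 CD4 T cell markers 8 were called lower and 0 higher in HFD, and their summed intensity was 88440 and 84086 on the HFD arrays and 107312 on the ND array. Of 7 B cell markers 4 were higher and 3 lower in both HFD arrays, and their sum read 2515 and 2801 in HFD and 473 in ND, a sum carried by Ms4a1 and Fcer2a, while the defining B cell gene Cd79a read 51.2 and 49.4 in HFD and 5.74 in ND and Cd79b read 190 and 168 in HFD and 219 in ND. Macrophage markers were lower in both HFD arrays for 7 of 9 genes (sum 918 and 1046 in HFD, 2211 in ND). Dendritic cell markers were lower for 4 of 5 (sum 699 and 765 in HFD, 1568 in ND). Neutrophil markers were higher for 3 of 5 (sum 469 and 553 in HFD, 85.7 in ND), a sum carried by S100a8 and S100a9. The granule genes Elane, Mpo and Ltf lay under the filter, and Elane was lower in both HFD arrays. Of all genes tested 20.5% were called higher and 29.2% lower. Both HFD arrays lay above ND for 35.8% of them and below for 54.7%. Past the filter were 3 of the 7 B cell, 5 of the 9 macrophage, 4 of the 5 dendritic cell and 2 of the 5 neutrophil markers. The 2 CD8 T cell markers summed to 581 and 715 in HFD and 449 in ND and the 3 natural killer cell markers to 552 and 642 in HFD and 415 in ND, and no marker read 0 on any array. The natural killer cell sum was carried by Eomes (471 and 558 in HFD, 367 in ND), while Ncr1 and Klra8 lay under the filter. The class II gene H2-Ea, which BALB/c antigen-presenting cells express and strains such as C57BL/6 do not, read 536 and 602 in HFD and 11.5 in ND. The part of other cells, or of a strain other than the labelled one, in the differences below was not tested, and without the ND array no comparison remains. The ratio of 3′ to 5′ control signal was alike, at 0.681 and 0.706 in HFD and 0.723 in ND for Gapdh, and 1.27 and 1.34 in HFD and 1.29 in ND for Actb.

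Most polymerase subunit transcripts were higher in HFD than in ND cells. Of the 25 genes, 19 rose, 1 fell and 5 were not called, where 20.5% of all genes tested rose and 29.2% fell. The groups did not overlap for 20 genes with both HFD arrays above ND and for 2 with both below, against 35.8% and 54.7% of all genes. The median difference over the 25 genes was log2 0.76, which is 0.91 above the median of all genes, and the largest gap between the HFD arrays for any subunit was log2 0.32. The difference to ND exceeded the gap between the HFD arrays for 22 of the 25, against 81.9% of all genes. Counted by size alone, 6 subunits (Polr1b, Polr1d, Polr1e, Polr2h, Polr3g and Polr3k) were at least 2-fold higher in both HFD arrays and 0 at least 2-fold lower, against 6.00% and 2.60% of all genes. In bulk RNA a change in the share of cells that express a gene and a change in RNA per cell cannot be told apart.

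**Figure D1:**
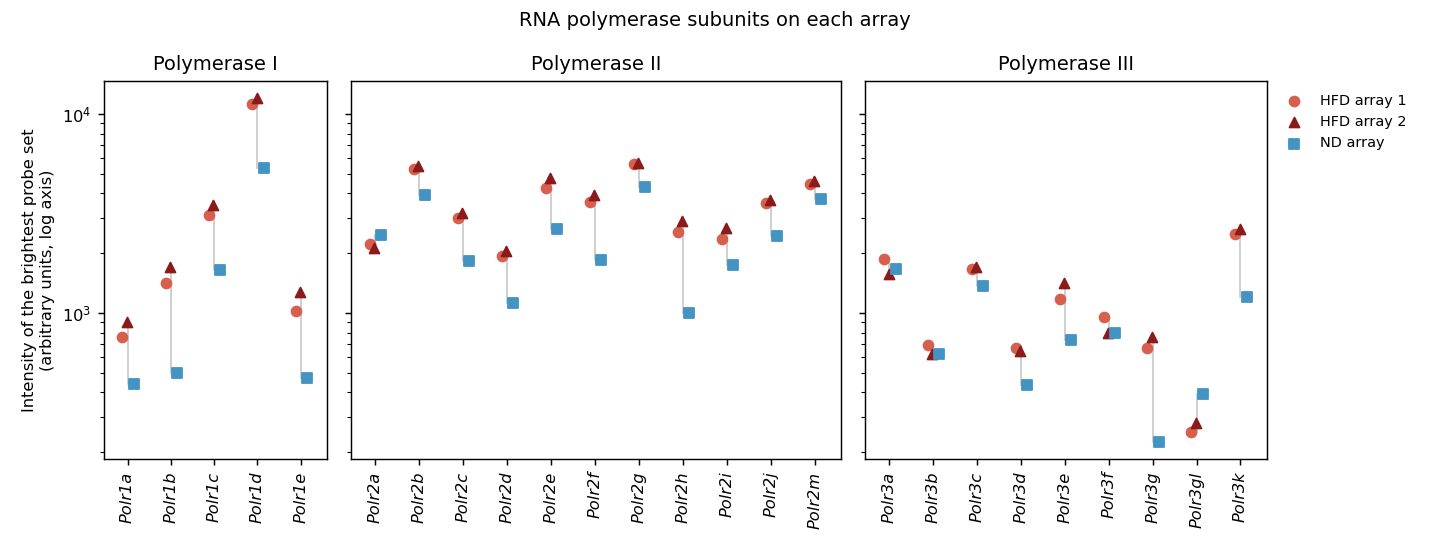
Intensity of each subunit's brightest probe set (log axis, arbitrary units) on HFD array 1 (circles), HFD array 2 (triangles) and the ND array (squares), in 1 panel per polymerase. The Polr1 symbols lie above the ND square for all 5 genes, while the Polr3 panel holds Polr3gl below it and Polr3a, Polr3b and Polr3f with ND between or beside the HFD arrays.

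The polymerase I subunits rose together. All 5 were called higher, against 20.5% of all genes tested. The group median was log2 1.11, or 1.26 above all genes (1.06 and 1.16 on each HFD array against ND). All 5 read higher on HFD array 2 than on array 1, with a median gap of log2 0.25, against 0.13 over all genes. Polr1b, the second-largest catalytic subunit, read 1426 and 1703 in HFD and 499 in ND, a difference of log2 1.61 ± 0.15 (SE), 3.05-fold, with an adjusted p of 2.7e-06 in limma. It ranked 241 from the highest of 10341 genes. Polr1a, the largest catalytic subunit, read 756 and 900 in HFD and 439 in ND, a difference of 1.84-fold (log2 0.88 ± 0.16, limma adjusted p = 6.1e-04). The HFD arrays of Polr1a lay log2 0.25 apart, less than their distance from ND.

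Polr1c and Polr1d encode the heterodimer on which polymerases I and III are both assembled, and variants of the human genes cause Treacher Collins syndrome. Polr1c read 3121 and 3493 in HFD and 1651 in ND (1.99-fold, limma adjusted p = 2.7e-05). Polr1d read 11195 and 12036 in HFD and 5371 in ND (2.16-fold, limma adjusted p = 8.4e-07). In both partners the HFD arrays lay within log2 0.16 of each other and clear of ND. Polr1e, which with its partner forms a module that resembles initiation factors of polymerase II, read 1025 and 1282 in HFD and 471 in ND (2.38-fold, limma adjusted p = 4.4e-05).

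Other polymerase I subunits stand in the annotation under older symbols and were read beside these. Cd3eap, the partner of Polr1e, read 463 and 463 in HFD and 186 in ND, a rise of log2 1.24 ± 0.18 (limma adjusted p = 1.2e-04) that lay close to the log2 1.25 of Polr1e. Twistnb, a subunit of the stalk, rose 1.39-fold (3663 and 3584 in HFD, 2607 in ND, limma adjusted p = 0.0030), with its other probe sets past the filter at log2 0.57 and -0.24, and with probe sets averaged it was not called (adjusted p = 0.151). Znrd1, the RNA cleavage subunit, read 2133 and 2198 in HFD and 1818 in ND and was not called (log2 0.25 ± 0.12, limma adjusted p = 0.0984; 0.0402 with arrays centred). Together with the Polr1 symbols, and without the subunits shared with polymerase II, 7 of 8 polymerase I genes measured were called higher, against 20.5% of all genes tested.

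Among the polymerase II subunits 10 of 11 rose, and 6 of 11 without a variance trend, where Polr2b, Polr2g, Polr2i and Polr2m were not called. Over all genes tested 20.5% rose, and 16% without a variance trend. The median over all 11 was log2 0.56, or 0.72 above all genes, set beside the log2 1.11 of polymerase I with no test between the groups. The exception was Polr2a, the largest catalytic subunit, whose carboxy-terminal repeat domain is phosphorylated during transcription. It read 2226 and 2119 in HFD and 2473 in ND, a difference of log2 -0.19 ± 0.12 that was not called (limma adjusted p = 0.207) and lay close to the log2 -0.15 of the median gene. Its other probe set gave log2 -0.26. Polr2b, the catalytic partner of Polr2a, read 5276 and 5508 in HFD and 3936 in ND and rose 1.37-fold (log2 0.45 ± 0.10, limma adjusted p = 0.0024).

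Of the subunits common to all 3 polymerases, those analysed here were Polr2h, Polr2f and Polr2e. Polr2h and Polr2f had the largest differences of the Polr2 symbols, while Polr2e (log2 0.76) lay below Polr2d (log2 0.82). Polr2h read 2547 and 2908 in HFD and 1004 in ND, a rise of 2.68-fold (log2 1.42 ± 0.13, limma adjusted p = 2.3e-06). Polr2f read 3610 and 3916 in HFD and 1851 in ND (2.02-fold, limma adjusted p = 1.5e-05). Polr2e read 4263 and 4800 in HFD and 2657 in ND (1.70-fold, limma adjusted p = 1.3e-04). The median of these 3 was log2 1.02, and that of the 8 other Polr2 genes was log2 0.49, values given as a description with no test between them. The Polr2e rise rests on its brightest probe set, since a much dimmer one read 138 and 84.0 in HFD and 115 in ND (log2 -0.07), and with probe sets averaged the call ended (adjusted p = 0.0871).

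The remaining polymerase II subunits rose by 1.21 to 1.77-fold. Polr2d and Polr2g form the stalk beside the RNA exit channel: Polr2d read 1945 and 2061 in HFD and 1127 in ND (1.77-fold, limma adjusted p = 1.8e-04), and Polr2g read 5611 and 5709 in HFD and 4289 in ND (1.32-fold, limma adjusted p = 0.0046). On the log2 scale these were 0.82 for Polr2d and 0.40 for Polr2g, each from 1 probe set and with no test between the partners. Polr2c and Polr2j form the assembly heterodimer that corresponds to Polr1c and Polr1d. Polr2c read 3019 and 3182 in HFD and 1827 in ND (1.69-fold, limma adjusted p = 1.6e-04), and Polr2j 3574 and 3693 in HFD and 2451 in ND (1.48-fold, limma adjusted p = 9.6e-04). On the brightest probe sets both differences were smaller than those of Polr1c and Polr1d. A Polr1d probe set nearly as bright (mean 9308 against 9534) gave log2 0.51, below Polr2c at 0.76 and Polr2j at 0.56. The others of Polr1d gave log2 1.23 and 1.18. Polr2i, which contributes to transcription fidelity, rose 1.44-fold (2366 and 2689 in HFD, 1744 in ND). Polr2m, a protein bound to polymerase II that hinders initiation factors, read 4453 and 4622 in HFD and 3750 in ND (1.21-fold, limma adjusted p = 0.0410), a call that ended in 5 of the 10 alternatives (adjusted p = 0.0529 to 0.156).

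The promoters of Polr2a and Polr2h are shown because these genes lie at the low and the high end of the Polr2 differences. Each is a RefSeq window of GRCm38.p6 from 250 bases before to 50 bases after an annotated start, printed 5′ to 3′ on the gene's strand, with capitals for the letters searched. Those were TATAAA (the TATA box), the E-box core CACGTG that MYC family proteins bind, and CCGGAA, a form of the ETS family core GGAA. Both strands were searched with no overlap between matches. Other GGAA sites, such as those in the Polr2h window, were not searched and are not marked. The Polr2a window is chr11:69758584-69758883 on the minus strand and the Polr2h window chr16:20717576-20717875 on the plus strand.
Polr2a: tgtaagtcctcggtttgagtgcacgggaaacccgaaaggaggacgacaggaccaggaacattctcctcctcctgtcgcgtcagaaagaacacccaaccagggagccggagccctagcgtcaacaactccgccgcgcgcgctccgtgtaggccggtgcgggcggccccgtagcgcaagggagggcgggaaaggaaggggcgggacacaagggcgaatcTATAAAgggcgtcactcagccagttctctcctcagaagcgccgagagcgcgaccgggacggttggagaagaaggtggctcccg
Polr2h: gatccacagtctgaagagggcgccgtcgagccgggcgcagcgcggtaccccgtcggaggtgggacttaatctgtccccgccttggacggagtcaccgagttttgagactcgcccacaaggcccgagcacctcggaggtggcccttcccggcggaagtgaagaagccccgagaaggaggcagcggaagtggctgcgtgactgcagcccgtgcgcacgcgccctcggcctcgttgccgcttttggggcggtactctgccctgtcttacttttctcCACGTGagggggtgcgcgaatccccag
The Polr2a window holds TATAAA with its first base at position -33 from the start, and the Polr2h window holds CACGTG from position 24 after it. A further window at a downstream start of Polr2h held none of the letters. TATAAA on either strand occurred in 2 of 23 subunit windows (Polr2a and Polr2c), against 13.6% of 32851 windows in the table and 7.03% of those of the genes tested.

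**Figure D2:**
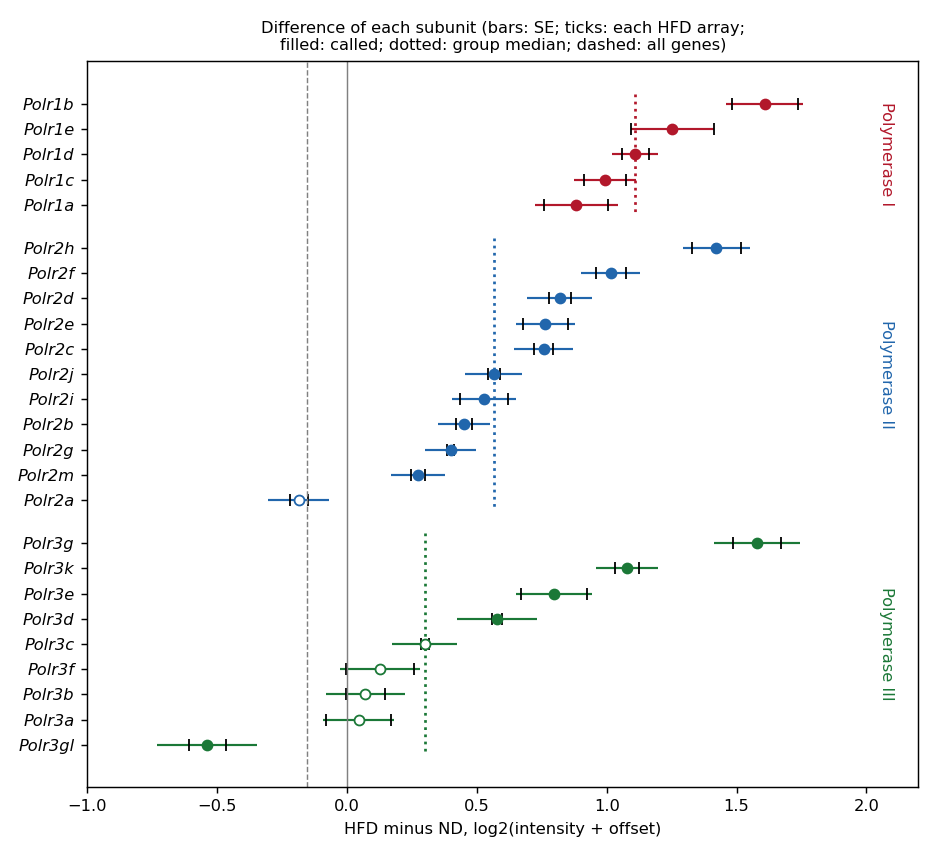
Difference of each subunit between HFD and ND on the log2(intensity + 17.7) scale, with the SE from limma as bars, the difference of each HFD array to ND as ticks, called genes filled, group medians dotted and the median of all genes dashed. Genes with a Polr1 symbol span log2 0.88 to 1.61, with a Polr2 symbol -0.19 to 1.42 and with a Polr3 symbol -0.54 to 1.58.

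Genes with a Polr3 symbol went different ways. Of 9 genes 4 rose, 1 fell and 4 were not called, where 20.5% of all genes tested rose and 29.2% fell. Their median was log2 0.30, or 0.45 above all genes. Polymerase III also holds subunits under other symbols. Of these Polr1c, Polr1d, Polr2e, Polr2f and Polr2h were called higher, and Crcp, given below, was not called. The gene that fell and the one that rose most are paralogs: Polr3g and Polr3gl encode alternative forms of a subunit in the module that opens the promoter. In human cells the Polr3g form is known from undifferentiated and tumour cells and the Polr3gl form from most tissues. Polr3g read 667 and 760 in HFD and 226 in ND, a rise of 2.99-fold (log2 1.58 ± 0.17, limma adjusted p = 9.0e-06). Polr3gl read 252 and 281 in HFD and 394 in ND, a fall of 1.45-fold (log2 -0.54 ± 0.19, limma adjusted p = 0.0333). Neither gene's groups overlapped. Both HFD arrays lay above ND for Polr3g and below it for Polr3gl, as they did for 35.8% and 54.7% of all genes. Each paralog was read by 1 probe set. The call of Polr3gl ended under quantile normalization (adjusted p = 0.128), without the intensity filter (adjusted p = 0.136) and with the prior degrees of freedom set to 4 (adjusted p = 0.0750), each time with the value still below ND, and the stricter filter removed the gene.

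The promoters of this paralog pair are shown because the genes moved in opposite directions. The Polr3g window is chr13:81710964-81711263 and the Polr3gl window chr3:96594132-96594431 of GRCm38.p6, both on the minus strand and marked as above.
Polr3g: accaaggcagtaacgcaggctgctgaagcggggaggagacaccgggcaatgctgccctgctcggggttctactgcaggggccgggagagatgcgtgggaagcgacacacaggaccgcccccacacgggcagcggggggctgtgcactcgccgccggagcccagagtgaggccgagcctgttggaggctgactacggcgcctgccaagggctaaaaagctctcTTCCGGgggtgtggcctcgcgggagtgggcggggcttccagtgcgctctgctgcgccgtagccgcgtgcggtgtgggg
Polr3gl: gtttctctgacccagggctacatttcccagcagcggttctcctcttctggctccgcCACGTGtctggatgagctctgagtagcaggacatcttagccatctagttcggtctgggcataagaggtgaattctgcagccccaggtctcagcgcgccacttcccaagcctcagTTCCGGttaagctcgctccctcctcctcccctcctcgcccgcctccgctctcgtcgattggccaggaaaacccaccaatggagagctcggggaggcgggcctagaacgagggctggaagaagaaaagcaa
Both windows hold TTCCGG, the reverse complement of CCGGAA, at position -28 in Polr3g and -80 in Polr3gl, and only the Polr3gl window of the pair also holds CACGTG, at position -194. Over all 23 subunit windows, from 21 genes, CCGGAA or TTCCGG occurred in 11, against 14.9% of all windows and 28.9% of those of the genes tested. CACGTG occurred in 4 (Polr2h, Polr3c, Polr3e and Polr3gl), against 7.15% and 10.2%. These 4 genes include 2 that rose, 1 that fell and 1 that was not called, and the matches are a description of letters, not of binding.

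The 3 other Polr3 genes that rose belong to polymerase III modules for initiation and termination. Polr3d and Polr3e form a heterodimer that resembles an initiation factor of polymerase II. Polr3d read 665 and 647 in HFD and 434 in ND (1.49-fold, limma adjusted p = 0.0075), and its other probe set gave log2 1.03 against 0.58. Polr3e read 1183 and 1413 in HFD and 737 in ND (1.74-fold, limma adjusted p = 7.2e-04). Polr3k, needed for RNA cleavage and termination, read 2499 and 2661 in HFD and 1212 in ND (2.11-fold, limma adjusted p = 1.6e-05). The rise of Polr3k was not shared by all of its probe sets: the 3 others past the filter gave log2 1.48, 0.08 and 0.03.

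The catalytic core subunits of polymerase III were not called. Polr3a, the largest subunit, read 1883 and 1583 in HFD and 1673 in ND (log2 0.04 ± 0.14, limma adjusted p = 0.808), and Polr3b, its catalytic partner, read 693 and 622 in HFD and 624 in ND (log2 0.07 ± 0.15, limma adjusted p = 0.725). In both genes the ND value lay between the HFD arrays on the brightest probe set, while the other probe set of each past the filter had both HFD arrays above ND (log2 0.44 for Polr3a and 0.17 for Polr3b). Polr3f, of the same module as Polr3g, read 955 and 793 in HFD and 795 in ND (log2 0.13 ± 0.15, limma adjusted p = 0.517), with its probe sets going both ways (log2 -0.24 to 0.30). Polr3c, of that module too, read 1665 and 1701 in HFD and 1365 in ND (log2 0.30 ± 0.13, limma adjusted p = 0.0636) and passed the threshold with arrays centred, with quantile normalization, with the stricter filter and with the robust variance model (adjusted p = 0.0213 to 0.0484). Crcp, a stalk subunit of polymerase III listed under its own symbol, read 1207 and 1192 in HFD and 1042 in ND (log2 0.20 ± 0.13, limma adjusted p = 0.230). Over the catalytic pairs of the 3 enzymes, Polr1a, Polr1b and Polr2b were called higher and Polr2a, Polr3a and Polr3b were not called.

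Where a gene had several probe sets past the filter, they mostly went the same way. Of 13 such subunit genes 11 had all probe sets on the same side of ND, and Polr2e and Polr3f had them on both. Over all 45 subunit probe sets past the filter 39 lay higher and 6 lower in HFD. For polymerase I, the other probe sets ranged from log2 0.59 to 1.06 for Polr1a, from 0.51 to 1.23 for Polr1d, and stood at 0.98 for Polr1c and 1.32 for Polr1e. The brightest probe sets of Polr1c, Polr1d, Polr1e, Polr2e and Polr3b carry a manufacturer's suffix for probes that may match further transcripts.

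**Figure D3:**
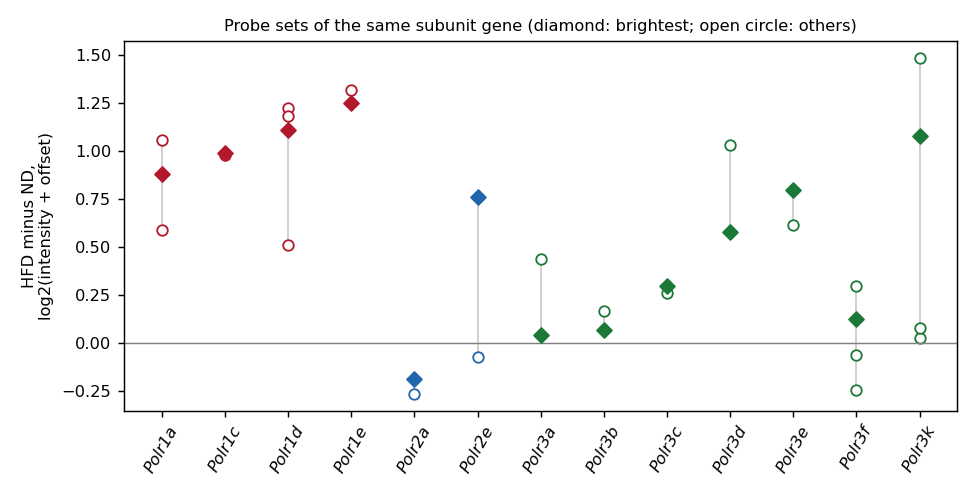
Difference between HFD and ND (log2(intensity + 17.7) scale) for the 13 subunit genes with over 1 probe set past the filter, with the brightest probe set as a diamond and the others as open circles. All Polr1 points lie above 0, while Polr3k spans 0.03 to 1.48 and Polr3f lies on both sides of 0.

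The factors that load and steer the polymerases were listed separately, with the results of these data already known in part, and their counts stand beside the 20.5% of all genes that rose and the 29.2% that fell. Of 7 polymerase I factors past the filter 3 rose and 1 fell (median log2 0.08). Rrn3, which bridges polymerase I to its promoter and responds to growth signals, read 989 and 919 in HFD and 518 in ND (1.81-fold, limma adjusted p = 3.8e-04). Of the promoter selectivity factor, Taf1d rose 2.31-fold (log2 1.21, with its other probe sets past the filter at 0.39 to 2.93) and Taf1a 1.66-fold. Taf1b fell by log2 0.42 (726 and 652 in HFD, 929 in ND, limma adjusted p = 0.0305), a call that ended in 4 of the 10 alternatives (adjusted p = 0.0732 to 0.0891).

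Among general initiation factors of polymerase II 13 of 17 rose and 0 fell, with a median of log2 0.50, against the log2 0.56 of the Polr2 subunits, and without a variance trend 8 rose. The largest differences were in Gtf2f2 of TFIIF (1226 and 1401 in HFD, 579 in ND, 2.23-fold), Gtf2e2 of TFIIE (2764 and 3108 in HFD, 1430 in ND, 2.04-fold) and the TFIIH subunits Gtf2h4 (1.97-fold) and Gtf2h3 (1.72-fold). The TATA-binding protein Tbp, used by all 3 polymerases, read 1232 and 1240 in HFD and 1085 in ND and was not called (log2 0.19, limma adjusted p = 0.261).

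Other polymerase II factors divided. Of 14 TFIID subunits 3 rose, near the 20.5% of all genes (5 under quantile normalization or with arrays centred), among them Taf10 (1.52-fold; adjusted p = 0.0960 with probe sets averaged) and Taf13 (1.35-fold; adjusted p = 0.0583 without a variance trend), and 1 fell. Taf4b read 744 and 880 in HFD and 291 in ND (2.68-fold, its other probe set log2 0.38), and Taf9b read 542 and 449 in HFD and 945 in ND, a fall of 1.88-fold. Of 20 pausing and elongation factors 5 rose, near the 20.5% of all genes, and 1 fell (median log2 0.00). They included Supt16, a histone chaperone, at 2.67-fold (4480 and 5152 in HFD, 1787 in ND), Nelfe at 1.76-fold, Leo1 at 1.63-fold and Tcea1 (2385 and 2104 in HFD, 1483 in ND). Of 5 phosphatases of the Polr2a repeat domain, Ssu72 rose 1.33-fold (adjusted p = 0.0644 without a variance trend) and Ctdsp2 fell 1.73-fold (3501 and 3250 in HFD, 5855 in ND).

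Genes that assemble polymerases before they enter the nucleus formed a further list. Of 12 measured 7 rose and 1 fell, with a median of log2 0.40, and 4 rose with no filter, with probe sets averaged or with the prior degrees of freedom set to 4. The ATPases Ruvbl1 and Ruvbl2, which act with several chaperone complexes besides that of the polymerases, rose 3.02-fold (2639 and 2926 in HFD, 909 in ND, limma adjusted p = 6.9e-07) and 4.22-fold (1549 and 1737 in HFD, 375 in ND, limma adjusted p = 1.9e-07). Rpap3, their link to the heat shock protein Hsp90, rose 1.93-fold, and the import factor Gpn1 rose 1.54-fold on its brightest probe set (adjusted p = 0.271 with probe sets averaged).

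Of 15 polymerase III factors 4 rose, near the 20.5% of all genes (2 with probe sets averaged), and 1 fell, with a median of log2 0.05. Gtf3c6, Gtf3c4 and Gtf3c1 of TFIIIC rose 1.85, 1.53 and 1.51-fold, the last with a dim probe set of opposite sign (log2 -0.38). Snapc3 rose 1.69-fold on its brightest probe set, while its 3 others lay at log2 -0.52 to -0.02. With probe sets averaged Gtf3c1 and Snapc3 were not called (adjusted p = 0.739 and 0.965). The factor that fell, Maf1, which represses polymerase III, was singled out after its values were seen and read 2997 and 2742 in HFD and 3985 in ND (log2 -0.47, limma adjusted p = 0.0038; 0.0565 without a variance trend).

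**Figure D4:**
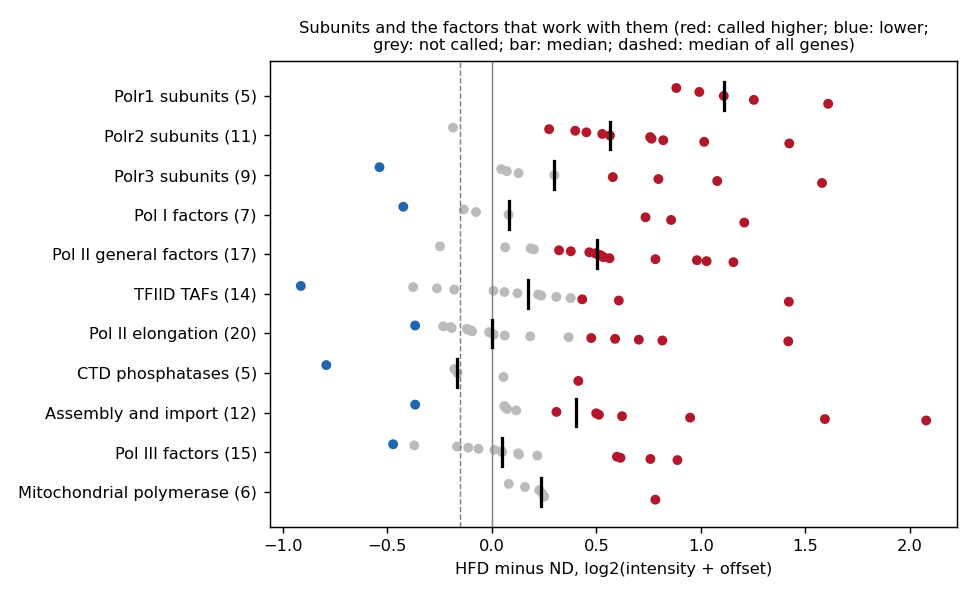
Difference between HFD and ND (log2(intensity + 17.7) scale) of each subunit and of each factor past the filter, 1 point per gene in rows by group, with the number of genes in brackets, group medians as bars and the median of all genes dashed. The Polr1 row lies wholly to the right, at log2 0.88 or more, and the rows of polymerase III factors and elongation factors centre near 0.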

How the data were processed

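RNA was measured on 3 Affymetrix arrays. The authors deposited linear intensity values per probe set, made with GCOS, Affymetrix's software, per the submitters' processing notes. For its algorithm, background correction and genome build, each is not given in the sources used here. Every array had the same trimmed mean (500.0, without the lowest and highest 2% of probe sets), and medians were 69.7 and 67.4 (HFD) and 78.3 (ND).

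Of 45037 probe sets besides controls, 34945 had 1 gene symbol, 932 several and 9160 none. Of those with 1 symbol, 34741 matched RefSeq genes (GRCm38.p6, names only) and 0 symbols changed. Values entered as log2(intensity + 17.7), with an offset at the 25th percentile of all values. Genes with a mean above 71.4, the median of probe set means, were tested on their brightest probe set with limma 3.58.1 (lmFit, eBayes with trend) in R 4.3.3, leaving 10341 genes. The residual has 1 degree of freedom, from the HFD arrays, moderated with 11.7 prior degrees of freedom, so ND is assumed to vary like HFD. The model was tested on simulated data in which few genes changed and every array had the same spread. The share of false calls in the real data was thus not measured. The model's estimate of the prior degrees of freedom varied widely between simulated tables. In most of them false calls took a larger share of the calls than the threshold names. A smaller fixed prior was added as an alternative, since 1 residual degree of freedom estimates the prior poorly. The number of arrays limits the precision. Depth does not apply to arrays. Genes named were all subunits, up to 4 called genes per list ranked by the lesser of the 2 HFD arrays' differences to ND, and subunits under other symbols. Tbp, Ubtf, Brf1, Maf1, Polrmt, Tfam, the marker genes and H2-Ea were named outside this rule, after their values were seen. Members and lists were chosen with earlier results of these data known. Python 3.11.15 with pandas 2.3.3, numpy 2.4.6 and matplotlib 3.10.9 handled tables and figures.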

Additional observations from a re-analysis of the deposited data

How the results depend on the processing

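Of the 25 subunits, 18 kept their direction and their side of the threshold under all 10 alternatives with a test. The count of subunits called higher was 15 to 20, lowest without a variance trend, where Polr2b, Polr2g, Polr2i and Polr2m were no longer called (adjusted p = 0.0550, 0.0697, 0.0521 and 0.156). Polr2m was also lost under quantile normalization, with no filter, with probe sets averaged and with the prior degrees of freedom set to 4, an alternative chosen after seeing the data. The count called lower, Polr3gl alone, became 0 under quantile normalization, with no filter, with the stricter filter, which removes the gene, and with the prior set to 4. The 6 subunits at least 2-fold higher in both HFD arrays became 4 with probe sets averaged, 5 under quantile normalization and 7 with arrays centred. The Polr1 median moved to log2 1.0 under quantile normalization and 1.01 with probe sets averaged, the Polr2 median to 0.63 with arrays centred, and the Polr3 median to 0.33 under quantile normalization, 0.37 with arrays centred and 0.44 with the stricter filter. None of these medians changed sign, and the order Polr1, Polr2, Polr3 was the same under each. With 1 HFD array left, no test is possible since no residual degrees of freedom remain: the medians were then 1.06 to 1.16, 0.54 to 0.62 and 0.28 to 0.31, and 6 to 9 subunits were at least 2-fold higher. For the factor genes, all alternatives were chosen after seeing the data. Of 37 followed, 9 lost their call under at least 1 alternative and 0 reversed past the threshold. With probe sets averaged the calls ended for Twistnb, Gpn1, Gtf3c1, Snapc3 and Taf10 (adjusted p = 0.0960 for Taf10). The count of polymerase II general factors called higher was 8 without a variance trend, against 13, and that of assembly factors was 4 with no filter, with probe sets averaged and with the prior set to 4, against 7. The counts of factor genes called lower, 0 or 1 in each list, ranged from 0 to 2. No paired analysis was possible because the ND group has 1 array and its label carries no replicate number.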

Other observations

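The mitochondrial RNA polymerase, a single-subunit enzyme encoded apart from the nuclear polymerases, was read beside them. Polrmt read 1212 and 1336 in HFD and 1203 in ND (log2 0.08, limma adjusted p = 0.645). Of its 6 listed genes past the filter 1 rose, near the 20.5% of all genes (2 under quantile normalization or with arrays centred, 0 with the stricter filter), and 0 fell. Tefm, the mitochondrial elongation factor, read 427 and 482 in HFD and 256 in ND (1.72-fold, limma adjusted p = 0.0030), and Tfam, which packages mitochondrial DNA and starts its transcription, read 2621 and 2721 in HFD and 2391 in ND (log2 0.16, limma adjusted p = 0.267). The list median was log2 0.23, or 0.39 above all genes.

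In the list of TFIID subunits the variant subunits Taf4b and Taf9b moved in opposite directions, at log2 1.42 and -0.91. Ubtf, which keeps ribosomal DNA open for polymerase I, read 2508 and 2010 in HFD and 2124 in ND and was not called (log2 0.08, limma adjusted p = 0.663), beside 5 of 5 Polr1 subunits that rose. Brf1, the TFIIIB subunit that recruits polymerase III to transfer RNA genes, read 701 and 648 in HFD and 877 in ND (log2 -0.37, limma adjusted p = 0.0516; 0.0284 with the stricter filter).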
